A study of Mus musculus with 3 samples.

Results

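NK cells of the lung and of the blood were compared 14 days after tumor cells had been injected into the circulation, within 1 droplet library in which the cells of each tissue carried their own hashtag antibody. The mice were wild-type females of 9 weeks on the C57BL/6 background, and PyMT cells, a line from a mouse mammary tumor that grows in the lung after intravenous injection, were given 14 days earlier. Live cells positive for NK1.1 and NKp46, both surface receptors of NK cells, were sorted from both tissues and loaded together. Barcodes were kept if 800 to 5000 genes were found in them and mitochondrial genes gave no more than 6% of counts. Of the 5785 kept, 3575 were assigned to lung because the tag B0304 gave at least 90% of the counts of both tags, and 2069 to blood by the tag B0306. These 5644 cells were taken from 21113 cells so assigned in the series, whose other libraries came from naive mice, with no tumor cells, and from mice 6 h after injection. The methods name the tissues and the tags in the same order and pair them in no other way, so the pairing rests on that order. Another 134 cells with both tags and 7 without tag counts were left out. From the cells with both tags, about 2.67% of the kept cells would be doublets of 1 tissue, and these stayed in. The lung of this group holds metastases, but cells were not sorted by nodule or vessel, and one tag per tissue does not tell animals apart.

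Lung cells held 28177180 UMIs (unique molecular identifiers, counts of distinct RNA molecules) with a median of 6999 per cell, and blood cells 16936897 with a median of 7524. Median genes per cell were 2535 and 2728, and median mitochondrial shares 2.93% and 2.88%. Counts were summed over the cells of a tissue and given as CPM, the counts of a gene scaled to the same total in each tissue. With 1 library no replicate error exists, so no test was made, and all intervals are 95% intervals that cover counting error only. At 14 days and in the naive library, 11 cell barcodes were shared, and 7 between 14 days and 6 h. Lungs were digested with collagenase at 37 °C and blood was not, so tissue and preparation cannot be told apart in any of the 3 libraries. The 10 NK marker genes were found in both tissues, and their summed level was 18464 CPM in lung and 26948 in blood. *Ncr1*, which encodes the NKp46 used in the sort, was itself among the genes lower in lung, at 665 CPM against 1384.

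NK cells mature from Cd27-positive cells, which keep transcription factors such as TCF1, toward Itgam-positive cells that carry KLRG1 and the fractalkine receptor CX3CR1 and circulate with the help of the sphingosine receptor S1PR5. TGF-β, a cytokine made latent and activated in tissues, signals through SMAD proteins, induces its own inhibitors such as SMAD7 and PMEPA1, and is known to push NK cells toward features of tissue residency, among them the integrin CD49a encoded by *Itga1*. Type I interferon drives a further, separate set of antiviral genes. Enzymatic digestion of tissue is itself known to induce immediate early genes.

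Of 6204 genes with a mean of at least 20 CPM over both tissues, 147 (2.37%) were at least 2-fold higher in lung and 19 (0.306%) at least 2-fold lower. In the naive library 193 genes (3.02%) were higher and 20 (0.312%) lower by the same rule, and at 6 h these were 185 (2.92%) and 12 (0.189%). Of the 147 genes higher in lung at 14 days, 89 were also higher in naive lung, which is 60.5% of the 14-day and 46.1% of the naive list. Of the 19 genes lower at 14 days, 3 were also lower in naive mice, 15.8% and 15.0% of the respective lists. The genes higher in lung thus overlapped the naive list in a larger share than the genes lower in lung, and neither overlap was tested. The median log2 ratio of lung over blood across all genes tested was -0.10, with quartiles of -0.24 and 0.06. Most genes thus lay below 0, and counts of list members below 0 are to be read against that. Ribosomal protein genes took 22.6% of lung counts and 18.6% of blood counts at 14 days, with 80 of 87 of them above a log2 ratio of 0, whereas they took 13% and 13.7% in naive mice.

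**Figure D1:**
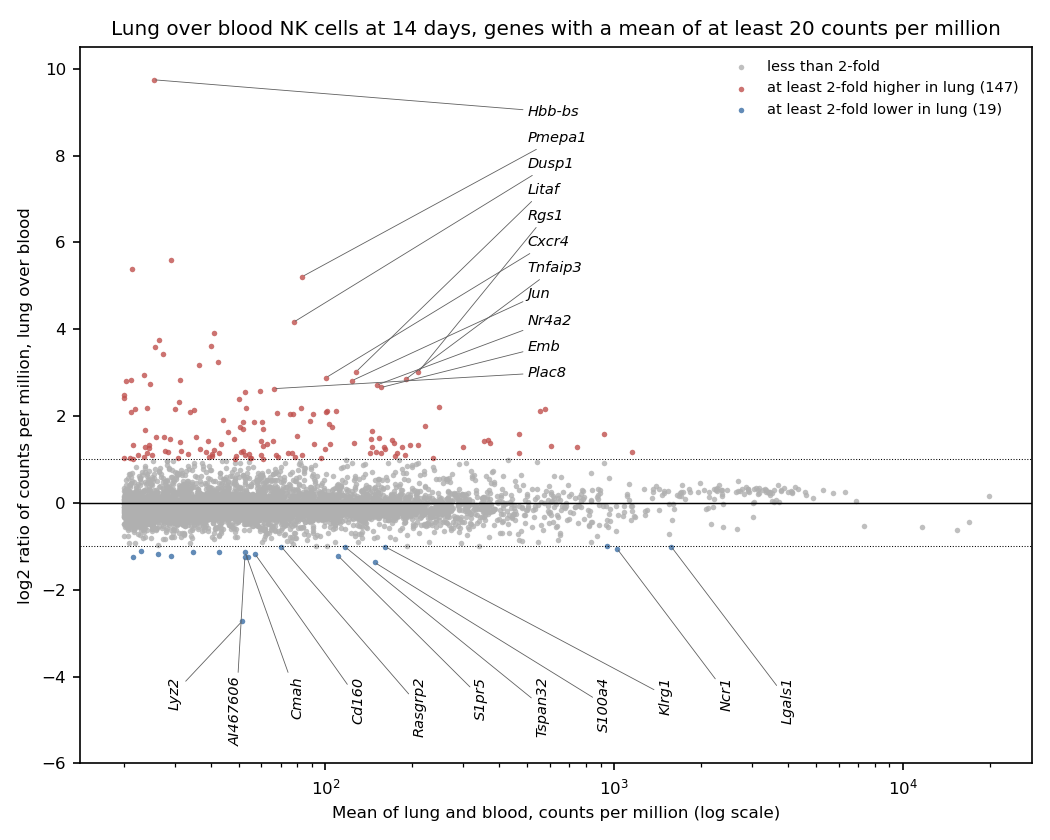
The log2 ratio of lung over blood (vertical axis) is plotted against the mean CPM of both tissues (horizontal axis, log scale) for the 6204 genes tested at 14 days, with the 10 genes of largest and of smallest ratio at a mean of at least 50 CPM labelled, with *Hbb-bs* and *Lyz2* besides. Red points (147) lie at or above a log2 ratio of 1 and blue points (19) at or below -1, and *Hbb-bs*, at the top, stems from 1 lung cell but for 1 count.

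The largest ratio among genes with a mean of at least 50 CPM was that of *Pmepa1* (ENSMUSG00000038400, chromosome 2 from 173224458 to 173276533 of GRCm38), an inhibitor of SMAD signalling that TGF-β induces. It had 162 CPM (157 to 167) in lung and 4.37 CPM (3.43 to 5.49) in blood, 37.1-fold higher in lung (29.5 to 47.3). After each cell was thinned to 3000 UMIs, 27.9% of lung cells (26.5% to 29.4%) and 0.630% of blood cells (0.336% to 1.08%) held a UMI of *Pmepa1*. Without thinning these shares were 41.6% and 2.32%. Free RNA, bounded by markers of other cell types in barcodes of at most 100 counts, could give a UMI to at most 1.92% of lung and 1.47% of blood cells, so the blood share did not exceed it. *Pmepa1* was thus found in blood no more often than free RNA allows, and in lung far above that limit. Bulk sums cannot tell fewer cells with a gene from less RNA in each, which is why shares of cells are given beside the levels. With free RNA subtracted at its upper limit no blood count was left, and 3 counts were set for blood. The log2 ratio then rose from 5.21 to 9.81, so the size of that value is set by those 3 counts.

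Within the TGF-β list, 6 of the 15 members with at least 20 CPM were at least 2-fold higher in lung and none 2-fold lower, and the median log2 ratio was 0.55. The ligand gene *Tgfb1* had 342 CPM in lung and 100.1 in blood, a log2 ratio of 1.77 (1.70 to 1.85). Among the receptors, *Tgfbr2* had 155 CPM against 106 (log2 ratio 0.55) and *Tgfbr1* 45.7 against 48.4 (-0.08). The inhibitors gave most of the high ratios. *Smad7*, which blocks the receptor, had 220.0 CPM against 69.7 (1.66, 1.57 to 1.75), and the co-repressors *Skil*, *Tgif1* and *Ski* had log2 ratios of 1.53, 2.09 and 0.78. The signal-transducing *Smad3*, *Smad2* and *Smad4* were lower in lung, with log2 ratios of -0.56, -0.23 and -0.16. Not all inhibitors were higher, since *Smurf1*, a ubiquitin ligase that acts on SMADs and the receptor, had 32.2 CPM against 35.0 (-0.12, -0.27 to 0.03).

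Genes known from tissue-resident lymphocytes went the same way in part. Of the 9 members of that list with at least 20 CPM, 5 were at least 2-fold higher in lung, with a median log2 ratio of 1.17, but over all 15 members with a count the median was 0.19. *Itga1* (ENSMUSG00000042284, chromosome 13 from 114953096 to 115101964), the CD49a collagen receptor, had 70.8 CPM (67.7 to 74.0) in lung and 31.5 (28.9 to 34.3) in blood, and was found in 14.4% of lung and 5.77% of blood cells after thinning. *Ahr*, a ligand-activated transcription factor, had 77.1 CPM against 8.09 (log2 ratio 3.25, 3.00 to 3.51). *Cd69*, which retains lymphocytes by lowering a sphingosine receptor, had 77.5 against 23.3 (1.74), and the G protein regulators *Rgs1* and *Rgs2* had ratios of 3.01 and 2.10. Smaller ratios above 0 were those of *Tmem123*, *Crtam* and *Itgav*, of 0.45, 0.19 and 0.19, and *Cd244a*, at 234 CPM in lung and 349 in blood, was the member with at least 20 CPM below 0 (-0.58). Of the 6 members under that minimum, *Gpr34* had 2.91 CPM in lung and 1.95 in blood and the other 5 were lower in lung. *Cxcr6* had 4.72 CPM against 15.3, *Zfp683*, a factor of resident cells, 0.603 against 1.71, and *Itgae* 5.29 against 8.80. Of the 10 genes listed as markers of ILC1, a related innate lymphocyte that shares NK1.1 and NKp46, 5 had at least 20 CPM. All 5 had a log2 ratio above 0, with a median of 1.17, and *Itga1*, *Tnfsf10* and *Inpp4b* were at least 2-fold higher in lung. Under that minimum, *Cxcr6*, *Zfp683* and *Cd200r1* were lower in lung. Summed over the 10 genes, the level was 421 CPM in lung and 205 in blood. The ILC1 list shares *Itga1*, *Cxcr6*, *Zfp683* and *Cd200r1* with the residency list. The median of 1.17 is in both lists the ratio of *Itga1* itself, so the lists are not separate results.

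Genes of less differentiated NK cells were mostly higher in lung. Of the 12 listed genes with at least 20 CPM, 5 were at least 2-fold higher and none 2-fold lower, and the median log2 ratio was 0.84. *Emb* (ENSMUSG00000021728), which encodes a partner of lactate transporters, had 269 CPM in lung (263 to 275) and 42.6 in blood (39.6 to 45.9), and 23.4% against 6.93% of thinned cells held it. The 1% of lung cells richest in *Emb* carried 20.4% of its lung counts. *Cxcr4*, a chemokine receptor that binds CXCL12, had 177 CPM against 24.0 (log2 ratio 2.88, 2.74 to 3.03). *Ctla2a*, an inhibitor of cathepsins, had 704 against 234 (1.59), and was found in 60.8% of lung and 34.4% of blood cells, with up to 15.6% of lung cells within reach of free RNA. *Ltb*, which encodes lymphotoxin β, had 131 against 51.4 (1.35), and *Tcf7*, encoding TCF1, had 63.5 against 33.7 (0.92, 0.78 to 1.05). Surface markers of this list differed to unequal degrees. *Cd28*, a costimulatory receptor, had 39.7 CPM in lung and 23.5 in blood (0.76, 0.59 to 0.93), and *Cd7* was lower in lung, at 131 against 189 (-0.53). *Cd27* had 54.4 CPM in lung and 47.0 in blood (0.21, 0.09 to 0.34), *Thy1* 57.1 and 49.9 (0.19), and *Ccr2* 186 and 175 (0.09).

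Genes of mature and circulating NK cells were lower in lung. In the maturation list 15 of 17 members with at least 20 CPM had a ratio below 0 and 3 were at least 2-fold lower, and the median log2 ratio was -0.57. *Klrg1* (ENSMUSG00000030114, chromosome 6 from 122270596 to 122282882), an inhibitory receptor for cadherins, had 107 CPM (103 to 111) in lung and 216 (209 to 223) in blood, and 22.2% of lung and 41.0% of blood cells held it after thinning. Without thinning these were 34.2% and 60.9%. *Cx3cr1* had 68.1 CPM (65.1 to 71.2) in lung and 134 (129 to 140.1) in blood, found in 13.2% and 22.1% of cells. *S1pr5*, required for exit from tissue, had 66.4 against 155 (log2 ratio -1.23, -1.31 to -1.14), and *Zeb2*, a transcription factor of late maturation, 631 against 1264 (-1.0, -1.03 to -0.97). *Itgam*, encoding CD11b, differed less, with 181 against 263 CPM (-0.54), and *Irf8* and *Prdm1* had ratios above 0, of 0.12 and 0.32. The egress list shares *S1pr5*, *Zeb2*, *Cx3cr1*, *Tbx21* and *Ly6c2* with the maturation list, so the 2 lists are not separate results. In the egress list 10 of 11 members with at least 20 CPM were below 0, with a median of -0.85. There *Klf2*, a transcription factor that sustains sphingosine receptors, had 455 CPM in lung and 822 in blood (-0.85, -0.89 to -0.82), and *Rasgrp2*, an activator of the integrin switch Rap1, had 46.7 against 93.9 (-1.01). The exception was the integrin gene *Itgb1*, at 750 CPM in lung and 486 in blood.

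**Figure D2:**
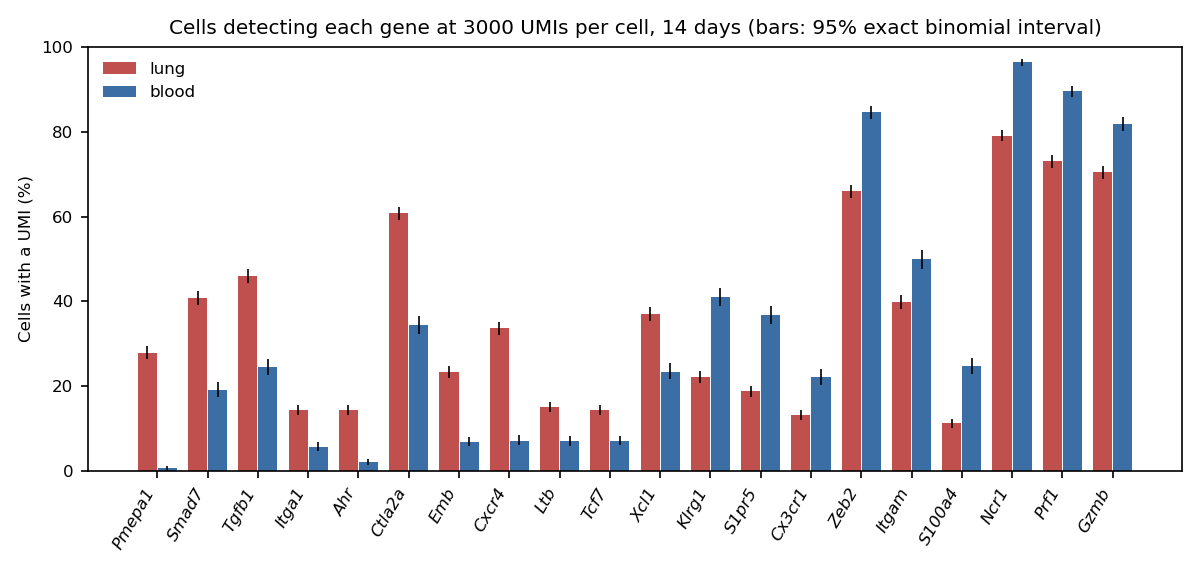
Bars give the share of lung (red) and blood (blue) NK cells at 14 days with at least 1 UMI of each gene after thinning to 3000 UMIs per cell, with exact 95% binomial intervals for 3537 lung and 2063 blood cells. *Pmepa1* is found in 27.9% and 0.630% of cells, whereas *Klrg1*, *S1pr5* and *Cx3cr1* are found in a larger share of blood cells.

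The killing machinery was lower in part. Of the 20 listed cytotoxic granule genes with at least 20 CPM, 2 were at least 2-fold higher, none 2-fold lower, and the median log2 ratio was -0.08. The list shares *Gzma*, *Gzmb* and *Prf1* with the maturation list. *Gzma*, the most abundant granzyme, had 9435 CPM in lung and 13978 in blood (-0.57), and *Prf1*, which encodes the pore-former perforin, had 790.2 against 1235 (-0.64, -0.67 to -0.62). *Gzmb* differed less than these, with 1222 against 1375 (-0.17), although it was found in 70.5% of lung and 81.9% of blood cells. *Gzmc*, a granzyme that is barely transcribed in resting NK cells, had 74.1 CPM against 6.08 (3.61, 3.32 to 3.91), but only 210 lung cells held it and the richest 1% of lung cells carried 80.9% of its counts. Without the 5% of cells with most UMIs its log2 ratio was 2.07. *Tnfsf10*, encoding the death ligand TRAIL, had 35.2 against 13.9 (1.34), and *Srgn*, the granule proteoglycan, 1202 against 638 (0.91).

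Secreted factors did not move together. *Xcl1*, which attracts cross-presenting dendritic cells, had 862 CPM in lung and 350 in blood (log2 ratio 1.30, 1.26 to 1.34), *Ifng* 114 against 64.3 (0.83) and *Ccl3* 314 against 214 (0.55). *Ccl4* had 1118 against 1172, and its sign depended on the scaling, with -0.07 as given and 0.03 when centred on the median gene. *Ccl5* was lower, at 12093 CPM against 18667 (-0.63). Of the 30 NK receptor genes with at least 20 CPM, 26 were below 0, with a median of -0.31 and 2 at least 2-fold lower, *Klri1* and *Ncr1*. The median of the same members was -0.25 in naive mice and -0.22 at 6 h. *Cd160* had 35.0 against 78.9 (-1.17), while *Tigit*, a checkpoint receptor for nectins, had 41.6 against 5.43 (2.94, 2.63 to 3.26).

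Integrin genes split by subunit. The β2 chain gene *Itgb2* had 336 CPM in lung and 622 in blood (log2 ratio -0.89), and its partner *Itgal*, which completes LFA-1, 316 against 451 (-0.51). *Itga4*, the α chain of VLA-4, had 649 against 1094 (-0.75), whereas its β chain gene *Itgb1* was higher in lung (0.63, 0.59 to 0.66). *Itgb7* had 154 against 184 (-0.26). In the S100, annexin and actin list 19 of 21 members had a ratio below 0, with a median of -0.48. *S100a4*, a calcium-binding protein of motile cells, was at 82.5 CPM in lung and 214 in blood (-1.37, -1.45 to -1.30), and *Lgals1*, encoding galectin 1, was at 1048 against 2112 (-1.01). *S100a6* and *Vim* had ratios of -0.90 and -0.85.

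Interferon response genes were higher in lung at the top of the list. Of 28 members with at least 20 CPM, 26 were above 0 but 4 reached 2-fold, and the median log2 ratio was 0.41. Over all 42 members with a count it was 0.66, since several scarce members had high ratios. *Isg20*, an antiviral exonuclease, had 49.4 CPM in lung (46.8 to 52.0) and 3.66 in blood (2.81 to 4.69), and was found in 10.7% of lung and 0.921% of blood cells. *Usp18*, which removes ISG15 from proteins, had 40.8 against 14.2 CPM, *Bst2*, encoding tetherin, 90.1 against 35.5, and *Isg15*, a ubiquitin-like protein, 55.2 against 25.9. For *Isg15* the cells with a UMI were nearly as frequent in both tissues, at 7.55% (6.70% to 8.47%) and 6.30% (5.29% to 7.44%) after thinning, and at 13.6% and 14.4% without. The richest 1% of lung cells held 41.0% of its lung counts. The same shape appeared over the list. Cells with at least 5 of the listed genes were 37.1% of lung (35.5% to 38.7%) and 35.0% of blood cells (33.0% to 37.1%), but cells with at least 10 of them were 8.0% of lung (7.13% to 8.94%) and 2.52% of blood cells (1.89% to 3.29%). *Cxcl10*, a chemokine induced by interferon, had 57.4 CPM in lung and 1.18 in blood (log2 ratio 5.6, 4.97 to 6.32), with 3.05% and 0.339% of cells holding it. Cells with many of the listed genes were thus more frequent in lung. *Ifit3*, *Rsad2* and *Ifi44*, below the minimum with 25, 14.1 and 12.1 CPM in lung, had log2 ratios of 2.75, 3.25 and 3.43.

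The promoters of these genes carry a recurrent element bound by interferon-regulated factors, and 3 are shown because they differ in its number and spacing. It was searched as GAAA, 2 bases of any kind and GAAA on both strands, with overlapping matches counted, from 250 bases before to 50 after the start of RefSeq genes on GRCm38.p6. It was present in at least 1 promoter of 22 of 32 interferon response genes found in the table (68.8%), against 3.99% of all 27025 genes in the table and 4.31% of the genes tested here. Of the 32851 single promoters 3.44% held it. Capitals mark the matches. The *Isg15* promoter lies at chr4:156200769-156201068 on the minus strand with 3 overlapping matches that begin 78, 72 and 66 bases before the start, that of *Bst2* at chr8:71537423-71537722 on the minus strand with 2 that begin 130 and 124 bases before it, and that of *Ifit3* at chr19:34583279-34583578 on the plus strand with 2 separate ones that begin 156 and 122 bases before it.
Isg15: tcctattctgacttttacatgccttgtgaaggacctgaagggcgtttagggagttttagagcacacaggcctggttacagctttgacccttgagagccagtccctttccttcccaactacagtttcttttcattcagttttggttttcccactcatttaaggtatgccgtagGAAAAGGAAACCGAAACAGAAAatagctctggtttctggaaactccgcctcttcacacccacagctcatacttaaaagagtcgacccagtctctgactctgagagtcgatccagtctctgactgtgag
Bst2: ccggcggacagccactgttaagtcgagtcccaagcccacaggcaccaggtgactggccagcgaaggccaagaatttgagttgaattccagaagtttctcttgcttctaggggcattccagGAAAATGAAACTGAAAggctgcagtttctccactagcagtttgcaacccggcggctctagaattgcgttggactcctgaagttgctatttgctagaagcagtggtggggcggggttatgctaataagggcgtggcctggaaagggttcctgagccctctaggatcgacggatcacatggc
Ifit3: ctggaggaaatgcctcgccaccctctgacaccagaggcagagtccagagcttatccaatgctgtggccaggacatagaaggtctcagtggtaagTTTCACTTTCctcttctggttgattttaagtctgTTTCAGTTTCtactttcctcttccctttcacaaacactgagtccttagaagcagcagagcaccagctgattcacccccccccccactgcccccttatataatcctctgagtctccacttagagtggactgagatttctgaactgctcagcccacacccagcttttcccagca
The median log2 ratio of lung over blood was 0.64 for the 22 genes with a match and 0.67 for the 10 without. No match was found in the 3 listed promoters of *Isg20*, the member with the highest ratio.

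Immediate early genes were the list with the most genes at least 2-fold higher in lung. Of 26 members with at least 20 CPM, 15 were at least 2-fold higher in lung and none was below 0, with a median of 1.16. *Dusp1*, a phosphatase that turns off MAP kinases, had 147 CPM in lung and 8.21 in blood (log2 ratio 4.16, 3.92 to 4.42), the AP-1 subunits *Fos* and *Jun* had 77 against 5.14 and 217 against 30.8, and *Tnfaip3*, an inhibitor of NF-κB, 333 against 46.3. In the naive library, without tumor cells, the median of the same members was 1.15, and the ratios of *Dusp1* and *Tnfaip3* were 4.46 and 3.16. The list was thus lung-biased to a like degree without tumor cells, and the part of digestion in it was not tested. *Jun*, *Fos* and *Fosb* had lower ratios in naive mice, of 1.63, 2.65 and 0.81, against 2.82, 3.91 and 3.58 at 14 days. Of 17 heat shock genes 1 was at least 2-fold higher, *Hspa1b*, an inducible HSP70, with 41.9 CPM in lung and 1.00 in blood at 14 days and 3.20 and 1.33 in naive mice.

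Set beside the other libraries, some genes were lung-biased at every time, with a like, smaller or larger ratio at 14 days. Others differed between tissues at 14 days and hardly before, or had the opposite direction in naive mice. *Cxcr4* had log2 ratios of 3.56 in naive mice, 3.52 at 6 h and 2.88 at 14 days, *Emb* 2.41, 2.42 and 2.66, and *Rgs1* 3.06, 3.09 and 3.01. *Pmepa1* was already lung-biased in naive mice, at 19.7 CPM against 2.17, and its log2 ratio was larger by 2.03 (1.53 to 2.53) at 14 days. By contrast *Itga1* had 14.5 CPM in naive lung and 16.5 in naive blood, and the 14-day ratio exceeded the naive one by 1.35 (1.11 to 1.59). *Ctla2a* and *Ltb* had naive log2 ratios of -0.16 and -0.90, which the 14-day ratios exceeded by 1.75 (1.68 to 1.81) and 2.25 (2.06 to 2.44). *Isg20* had 2.68 CPM in naive lung and 2.50 in naive blood. *Klrg1* and *Cx3cr1* had ratios near 0 in naive mice, of -0.08 and -0.01, and the 14-day minus naive differences were -0.93 (-1.02 to -0.84) and -0.97 (-1.09 to -0.85). *Klf2* went from 1105 CPM in naive lung against 809 in naive blood to 455 against 822 at 14 days. For *Klf2* and *Klrg1* the blood levels lay close to those of naive mice, with *Klrg1* at 190.1 CPM in naive blood and 180.1 in naive lung. *S100a4* differed in both tissues, with 115 CPM in naive lung and 119 in naive blood against 82.5 and 214 at 14 days. With 1 library per time none of these differences between times was tested. The upper limit of free RNA was 8.75% of lung and 6.72% of blood counts at 14 days, from neutrophil and fibroblast markers. In the naive library it was 70.0% and 68.4%, both from platelet markers. Platelet markers, too scarce at 14 days to set the limit, gave 54.6% and 90.9% there, so the limits cannot be compared between times. The part of free RNA in the difference between times was not tested.

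**Figure D3:**
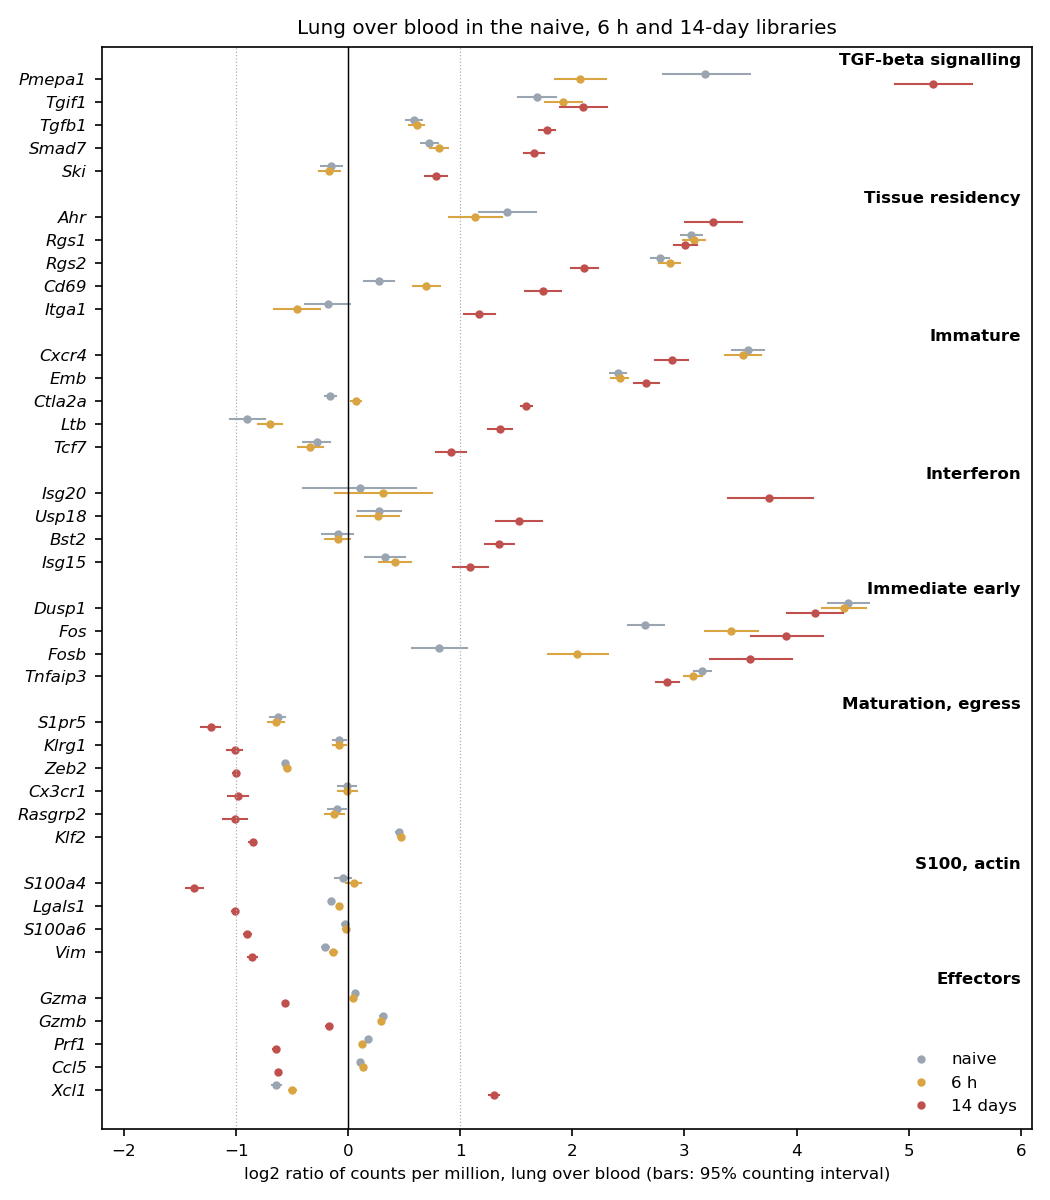
Points give the log2 ratio of lung over blood for each gene in the naive (grey), 6 h (yellow) and 14-day (red) libraries, with 95% counting intervals as bars and dotted lines at 2-fold. *Rgs1*, *Cxcr4* and *Emb* are lung-biased in all 3 libraries, whereas *Itga1*, *Xcl1* and *Klrg1* separate at 14 days. *Ltb* and *Klf2* differ between tissues in naive mice too, in the direction opposite to that at 14 days.

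Whole lists also differed between times. The immature list had a median log2 ratio of -0.23 in naive mice, -0.08 at 6 h and 0.84 at 14 days, the TGF-β list 0.13, 0.09 and 0.55, and the interferon list -0.32, -0.22 and 0.41. The maturation list had -0.01, -0.01 and -0.57, and the egress list -0.10, -0.12 and -0.85. The S100, annexin and actin list had -0.15, -0.12 and -0.48. The immediate early list stayed high, with 1.15, 1.39 and 1.16. Centring on the median of all genes moves each 14-day value up by 0.10, which changed no sign among these lists. The median of the cytotoxic granule list changed sign with it, from -0.08 to 0.02.

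**Figure D4:**
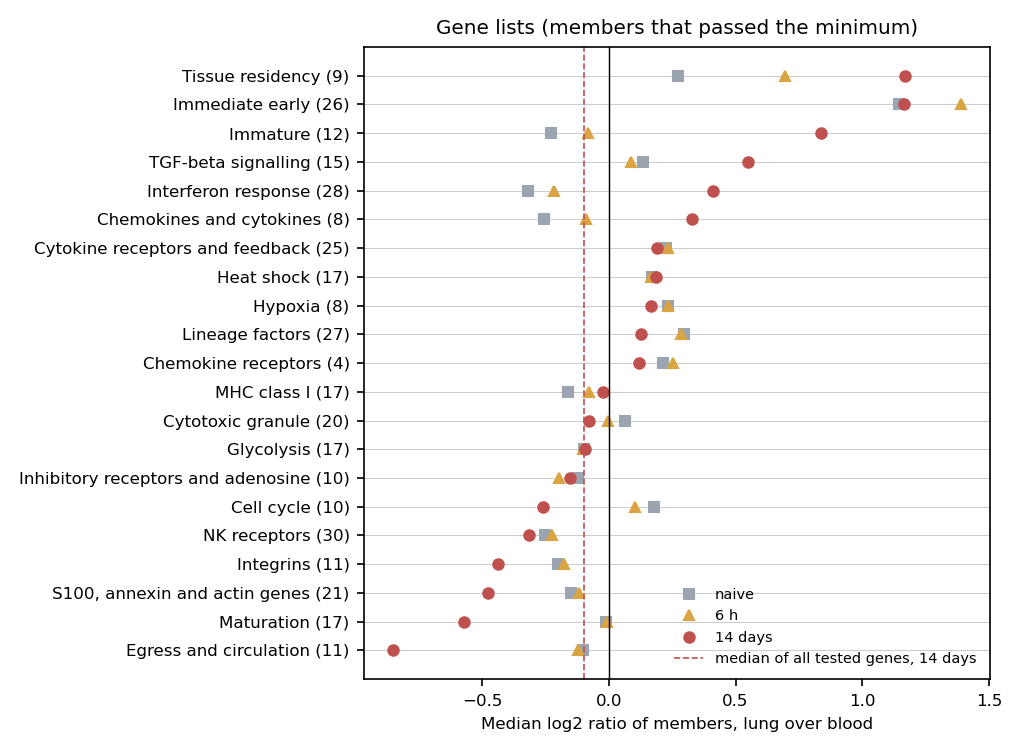
Each row is a gene list with the number of members of at least 20 CPM in brackets, and symbols give the median log2 ratio of lung over blood in the naive (grey squares), 6 h (yellow triangles) and 14-day (red circles) libraries. The immediate early list lies near 1.15 in naive mice and at 14 days, while the egress and maturation lists lie near 0 in naive mice and at -0.85 and -0.57 at 14 days.

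The tissues were also compared among cells grouped by a UMI of *Cd27* and *Itgam*. After thinning, a UMI of *Cd27* without *Itgam* was found in 8.28% of lung cells (7.40% to 9.24%) and 7.13% of blood cells (6.05% to 8.32%). Without thinning these shares were 13.5% (12.4% to 14.7%) and 8.17% (7.02% to 9.43%), so the intervals overlapped after thinning and were apart before it. Both genes were found in 3.51% and 5.09%, and *Itgam* without *Cd27* in 36.4% (34.8% to 38%) and 44.8% (42.6% to 47.0%). The remaining 51.8% and 43.0% held a UMI of neither, and a missing UMI does not show that a cell lacks the gene. Within cells with *Itgam* alone, *Pmepa1* had a log2 ratio of lung over blood of 5.73 (5.09 to 6.44), *Itga1* 2.15, *Cxcr4* 2.89, and *Ctla2a* 1.57. There *Klrg1* had -0.61, *S1pr5* -0.89 and *S100a4* -1.19. Within cells with *Cd27* alone, *Pmepa1* had 6.97 (5.11 to 10.02) and *Ctla2a* 1.43, whereas *Itga1* was not higher in lung there (-0.38). *Klrg1*, *S1pr5* and *S100a4* had their lowest ratios in these cells, of -1.91, -2.32 and -2.66. *Cxcl10* was among the 5 largest ratios in cells with *Cd27* alone, with 98.6 CPM in lung and 3.08 in blood. That log2 ratio of 5.00 (3.63 to 6.89) rests on 262 lung and 4 blood counts. Its mean of 50.8 CPM passed the minimum of 50 CPM through the lung level. The maturation list had medians of -0.79 in cells with *Cd27* alone and -0.40 in cells with *Itgam* alone, and the immature list 0.48 and 0.89. The direction of both lists was therefore the same in these 2 groups. Groups were set on thinned counts and ratios used all counts, so cells of a group are not matched in *Cd27* and *Itgam*. Groups set on unthinned counts gave maturation medians of -0.75 and -0.39 and immature medians of 0.42 and 0.93.

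**Figure D5:**
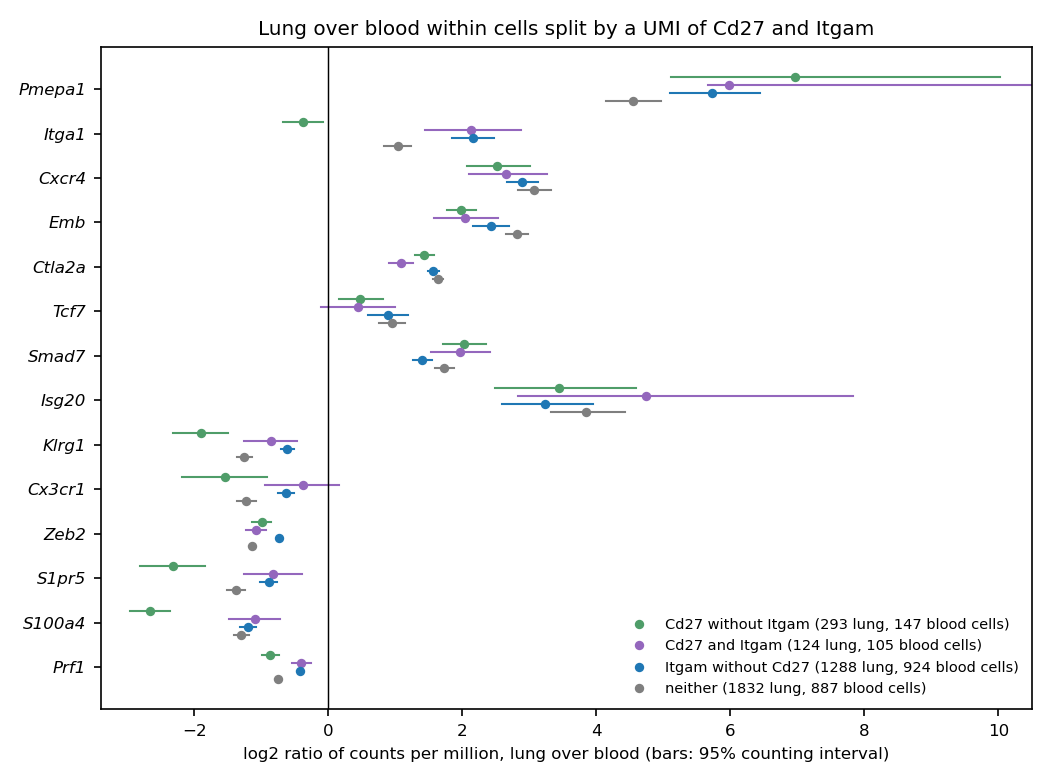
Points give the log2 ratio of lung over blood at 14 days within cells with a UMI of *Cd27* alone, of both genes, of *Itgam* alone or of neither after thinning, and bars give 95% counting intervals. One *Pmepa1* interval has no upper bound because no count was found in the blood cells with both genes. *Klrg1* and *S100a4* lie below 0 in all 4 groups, and *Itga1* lies at -0.38 in the *Cd27* group and above 0 in the other 3.

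Cells with *Pmepa1* or *Itga1* made up 34.9% of lung cells after thinning. In lung 7.35% held both, 20.6% *Pmepa1* alone and 7.01% *Itga1* alone. In blood these shares were 0.0969%, 0.533% and 5.67%. The lung cells with either gene were chosen by a measured level and are only described. They had 33.7 CPM of *Klrg1* and 385 of *Prf1*, against 148 and 1020 in the other lung cells and 216 and 1235 in blood. *Dusp1* had 146 CPM in them and 148 in the other lung cells. Over the lists, the median log2 ratio to blood was -1.20 in cells with either gene and -0.34 in lung cells with neither for maturation, -1.75 and -0.44 for egress, 1.19 and 0.58 for the immature list, and 1.12 and 1.19 for immediate early genes. Lung cells with no UMI of either gene after thinning thus also differed from blood, by less for maturation and egress and about equally for immediate early genes. In all their counts these cells still had 43.1 CPM of *Pmepa1* and 16.3 of *Itga1*. Blood cells, which were not selected by either gene, had 4.37 and 31.5, so the lower *Itga1* value in lung here is no finding. The lung cells so selected therefore include cells that hold these genes, and their values are not those of cells without them.

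Markers of other cells bear on single genes. *Hbb-bs*, a hemoglobin chain, had 50.7 CPM in lung and 0.0590 in blood, and 1 lung cell held 1427 of the 1428 counts in lung. The myeloid gene *Lyz2* had 13.5 CPM in lung and 89.3 in blood, where 1 cell held 67.3% of its counts. *Cd74*, of antigen-presenting cells, had 28.3 CPM against 1.65, with 77 lung and 18 blood cells holding it. Summed over their lists, B cell markers had 60.3 CPM in lung and 43.8 in blood, T cell markers 633 and 641, myeloid markers 185 and 211, neutrophil markers 1.92 and 4.78, fibroblast markers 1.88 and 0.709, and tumor epithelial markers 0.532 and 0.354. Among the defining markers *Marco*, of alveolar macrophages, was at 0 in both tissues, and *Sftpc* of alveolar cells had 1 count in all. Other markers were found in lung. The myeloid *Chil3* had 211 counts there, 208 of them in 1 cell, and 12 in blood. *C1qa* and *C1qb* had 143 and 141 against 1 and 0, and *H2-Ab1* 312 against 16. The endothelial *Cldn5* had 32 counts, all in 1 lung cell, whereas *Mmp9* had 5 in lung and 63 in blood. Endothelial markers summed to 87.7 CPM in lung and 64.1 in blood, and lung epithelial markers to 111 and 162. Platelet markers summed to 5.1 and 8.4. Without cells holding a hemoglobin or C1q gene, 143 genes were at least 2-fold higher in lung and 16 lower, 142 and 16 of them shared with the counts above.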

How the data were processed

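Gene and hashtag counts of 3 droplet libraries (naive, 6 h and 14 days) were used. The authors deposited raw UMI counts per barcode, made with Cell Ranger from 3′ libraries on GRCm38.p6 with GENCODE M23. The labels name version 7.0.1 and the matrix headers 7.1.0. Nothing was normalised before deposit. Positions are from GENCODE M21, which held 25461 of 25906 genes.

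Barcodes with 800 to 5000 genes and at most 6% mitochondrial counts were kept and assigned to a tissue at 90% of the counts of both tags. Cells with both tags were left out as doublets, and no doublet caller was run. Counts were summed per tissue and scaled to CPM. Log2 ratios carry exact conditional binomial intervals, and shares exact Clopper-Pearson intervals at 3000 thinned UMIs (38 lung and 6 blood cells were shallower and left out). UMIs limit repeats of 1 molecule, and all intervals cover counting error only. For a sum of 0, 3 counts were set. Genes were tested at a mean of 20 CPM and called at 2-fold. The steps were tested on simulated data. Python 3.11.15, numpy 2.4.6, scipy 1.17.1 and pandas 2.3.3 were used.

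Genes to name were drawn from the 10 largest and 10 smallest ratios at a mean of 50 CPM, without markers of other cells, mitochondrial and ribosomal protein genes. Further sources were the genes the study discusses, the 4 largest absolute ratios per list and the 5 at each end of each split. Not all genes so drawn are named in the text. Further list members were named after their values were seen. The cells, 21 gene lists and 12 marker lists were chosen with earlier results of these data known. Other filters, scalings, thinning depths and cell selections were tried. Leaving out cells with hemoglobin or C1q genes, and keeping only cells with *Ncr1*, were chosen after seeing the data.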

Additional observations from a re-analysis of the deposited data

Results flagged for a closer look

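With 1 library per time, differences between the naive and 14-day libraries were not tested. The values below are some of those where the log2 ratio of lung over blood had opposite signs in them. *Ltb*, *Ctla2a*, *Itga1* and *Klf2*, given above, also had opposite signs. The median of the immature list was 0.84 at 14 days and -0.23 in naive mice, that of chemokines and cytokines 0.33 and -0.26, that of the interferon response 0.41 and -0.32, and that of the cell cycle -0.26 and 0.18. Among effector genes, *Gzma* had -0.57 at 14 days and 0.06 in naive mice, *Prf1* -0.64 and 0.18, and *Ccl3* 0.55 and -0.10. Of the others, *Tcf7* had 0.92 and -0.28, *Ski* 0.78 and -0.15, and *Itgb1* 0.63 and -0.25. *Gzma* and *Prf1* thus had ratios slightly above 0 in the naive library and below 0 in the 14-day library. The transcription factor, the SMAD co-repressor and the integrin chain had the reverse signs. These values were picked because their signs differed, and none of the naive ratios listed here reached 2-fold.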

How the results depend on the processing

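No paired analysis was possible because each time has 1 library and no replicate numbers join lung to blood. Over 21 lists and their alternatives, 319 of 378 median log2 ratios stayed between the medians of their members' lower and upper interval bounds. Of these 378 medians 6 changed sign. The MHC class I median was 0.01 at most 3% mitochondrial counts, 0.05 without mitochondrial and ribosomal protein genes, and 0.08 when centred. Centring also changed the sign for glycolysis (0.004) and the cytotoxic granule list (0.02). The hypoxia median was -0.17 at a minimum of 50 CPM. Of 1632 values of 96 genes, 1364 stayed within the gene's counting interval and 5 changed sign, those of *Ccl4* and *Cxcr3*. The cause of the following moves was not tested. Genes at least 2-fold higher in lung numbered 87 of 3496 tested at a minimum of 50 CPM, against 147 of 6204 at 20 CPM. Genes lower numbered 31 of 7884 at 10 CPM, against 19 of 6204 at 20 CPM. The number of genes tested thus changed with the minimum. Genes lower were 31 of 6157 with free RNA subtracted and 12 of 6208 with each cell's own CPM averaged. At most 3% mitochondrial counts gave medians of -0.79 for egress, 1.02 for immature, -0.55 for maturation, 0.46 for TGF-β and 1.01 for residency genes. Totals without mitochondrial and ribosomal protein genes gave -0.71 for egress, 1.24 for immediate early, -0.50 for maturation and -0.40 for S100 genes, and centring on the median gene -0.75, 1.26, -0.47 and -0.38. Averaging each cell's CPM gave -0.75 for egress and -0.51 for maturation, leaving out the 5% of cells with most UMIs -0.78 and -0.53, and leaving out cells with *Mki67* or *Top2a* -0.82 and -0.55. Subtracted free RNA gave -0.92 for egress, 1.29 for immediate early and -0.63 for maturation, and log2 ratios of 9.61 for *Dusp1* and 5.19 for *Isg20*. The size of the *Dusp1* value, like that of *Pmepa1*, rests on few or no blood counts left. A minimum of 50 CPM gave 1.30 for immature, 1.26 for immediate early, 0.20 for interferon and 0.78 for TGF-β genes. A minimum of 10 CPM gave -0.79 for egress and 0.81 for residency, and no minimum -0.72, 0.19 and, for interferon genes, 0.66. Cells with *Ncr1* alone gave -0.55 for maturation and -0.45 for S100 genes. Without cells holding T cell, B cell or *Lyz2* counts the residency median was 1.60, and without those holding at least 2 of *Tmem176a*, *Tmem176b*, *Cxcr6* and *Il7r* it was 1.69. Among cells with neither *Cd27* nor *Itgam* in unthinned counts the maturation median was -0.77. Shares of lung and blood cells without thinning were 20.8% and 35.4% for *Cx3cr1*, 23.9% and 10.2% for *Itga1*, 34.2% and 60.9% for *Klrg1*, and 41.6% and 2.32% for *Pmepa1*. At 2000 UMIs they were 9.75% and 17.7%, 10.8% and 4.16%, 16.8% and 29.9%, and 21.9% in lung for *Pmepa1*.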

Other observations

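Further lists had medians nearer to 0 in the comparison of lung and blood NK cells at 14 days. None of the 17 MHC class I genes reached 2-fold, and their median log2 ratio was -0.02. Of 17 glycolysis genes 1 was at least 2-fold higher in lung, with a median of -0.10. This was *Emb*, the partner of lactate transporters that is also in the immature list. Of 8 hypoxia genes 1 was at least 2-fold higher, *Vegfa*, which encodes a growth factor of blood vessels, with a median of 0.17. The signs of the MHC class I, glycolysis and hypoxia medians changed under other settings, as given above. None of 10 cell cycle genes reached 2-fold, with a median of -0.26. Of 27 lineage transcription factors 2 were higher and 1 lower, with a median of 0.13, and of 25 cytokine receptor and feedback genes 2 were higher, with a median of 0.19. Of 10 inhibitory receptor and adenosine genes 1 was higher, *Tigit*, and 2 lower, *Cd160* and *Klrg1*, with a median of -0.15 over members that went both ways. Of 4 chemokine receptor genes with at least 20 CPM, *Cxcr4* alone was at least 2-fold higher.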
